A study of Mus musculus with 6 samples.

Results

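CTCF sites that lie within 5000 bp of another CTCF site were followed in erythroblasts with and without BRD2. Members were chosen by position in the wild-type list alone: a member was a wild-type peak on chromosomes 1 to 19 whose nearest other wild-type peak on the chromosome lay at most 5000 bp away, measured from edge to edge. The segment of chromosome 14 from 2 to 8 Mb was left out. Of the 38359 wild-type peaks used, 12957 (33.8%) were members, and runs of them formed 5581 clusters. The other 25402 peaks, more than 5000 bp from any other, are called isolated. The whole wild-type list held 40271 peaks.

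The libraries came from the mouse erythroblast line G1E-ER4, in which the GATA1 gene is lost and a fusion of GATA1 with the estrogen receptor takes its place, so that estradiol starts red cell differentiation. The BRD2-null cells were 2 clonal sub-lines, D and C8, each made with CRISPR/Cas9 until no BRD2 could be detected, and each given 100 nM estradiol for 24 hours. The wild-type G1E-ER4 cells, which carry the same GATA1 fusion on the same GATA1-null background, had the same dose and time. Each of these had 1 CTCF ChIP-seq library, and the 3 matching input libraries were not used here. Each sub-line is 1 clone, so loss of BRD2 and clonal origin cannot be told apart within a clone.

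The zinc finger protein CTCF recognises a long DNA motif and, with cohesin, anchors chromatin loops and insulates neighbouring domains from each other. Loop extrusion by cohesin tends to stop at CTCF sites in a set orientation, and domain borders often carry several CTCF sites close together, where neighbouring sites can back each other up. BRD2 is a BET protein that reads acetylated histones through its bromodomains. The study asked how BRD2 and CTCF work together at boundaries. The comparison here asks whether closely spaced CTCF sites were found again without BRD2 as often as sites that stand alone.

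The deposited lists held 29769 peaks in clone D, 32308 in clone C8 and 40271 in wild type, 1 list per library. They hold no read totals, so depth is unknown, and absence from a list means only that no peak was called. Peak strength is the authors' enrichment, a fold value of each peak over a background not given in the sources used here, so matching and ranking by it were done within a list. Where clone and wild-type values stand side by side, only their order within each list is read. A wild-type peak was counted as found in a clone when a clone peak overlapped it by at least 1 bp. Since wild type had 1 library, genotype was not tested, and peaks of 1 list are not replicates. All values below are therefore descriptions with no p-value. Shares carry exact (Clopper-Pearson) 95% intervals, which cover counting error only, and the spread between the clones is the only spread between libraries of 1 genotype.

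Most clusters were pairs. There were 4292 clusters of 2 peaks (76.9%), 938 of 3, 246 of 4, 76 of 5, 20 of 6, 4 of 7, 3 of 9 and 2 of 10. Pairs held 66.3% of the members, and clusters of 4 or more held 12.0%. The median cluster spanned 3421 bp from the first base of its first peak to the last base of its last (quartiles 2018 and 5064 bp). Pairs had a median span of 2827.5 bp, clusters of 3 peaks 5608.5 bp and clusters of 5 or more 11491 bp. The shortest cluster covered 563 bp and the longest 25175 bp. The gap between adjacent members had a median of 1963 bp. Of the 7376 such gaps, 2089 were at most 1000 bp and 585 at most 250 bp.

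Members were found on every autosome, in unequal shares. They made up 40.6% of the peaks used on chromosome 11, 38.5% on chromosome 5 and 38.0% on chromosome 17. At the other end they made up 26.4% on chromosome 13 and 27.4% on chromosome 18. Chromosome 11 held 485 clusters and chromosome 18 held 135.

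At the limit of 5000 bp the last members were a peak on chromosome 7 (19861580 to 19862080), 4999 bp from its neighbour, and 2 peaks on chromosome 7 (50702721 to 50703097 and 50708096 to 50708372), 4998 bp apart. The first peaks outside lay 1 bp beyond the limit: 2 on chromosome 4 (43060014 to 43060486 and 43065488 to 43065930), with another on chromosome 8 (47235007 to 47235492). All 6 peaks were found in both clones. Positions are mm9, counted from 1.

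Clustered peaks were somewhat stronger than isolated ones in the wild-type list. Their median enrichment was 25.57 (quartiles 15.84 and 45.6), against 21.96 for isolated peaks (13.88 and 40.4). The −log10 p of the authors had a median of 13.975 in clustered peaks and 11.731 in isolated peaks. A −log10 p below 10 was held by 40.0% of clustered peaks and 44.5% of isolated peaks. The authors' q-value was at most 0.05 in 7395 clustered peaks (57.1%) and 13283 isolated peaks (52.3%). Many members thus did not reach that limit. Median widths were 413 and 399 bp for clustered and isolated peaks. The strongest clustered peak had an enrichment of 251.77, and the strongest isolated peak 295.39. In the weakest of 10 strength classes by enrichment 1159 peaks were clustered and 2677 isolated, and in the strongest class 1560 were clustered and 2275 isolated. So the raw shares found in the clones cannot be set side by side without matching for strength.

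Members of 1 cluster differed in strength. Over all clusters the median enrichment was 41.74 for the strongest member and 17.29 for the weakest. The median ratio of strongest to weakest was 1.58 in pairs, 2.49 in clusters of 3 and 4.39 in clusters of 5 or more. Adjacent members were alike in strength to a small degree, more so at most 1000 bp apart than at 2000 to 5000 bp. Across the 2089 pairs at most 1000 bp apart, Spearman's rho between the enrichments of neighbours was 0.371 and Pearson's r of log2 enrichment was 0.323. At gaps of over 2000 to 5000 bp rho was 0.181 and r 0.167. Outside clusters, rho was 0.0814 and r 0.0799 at gaps of over 5000 to 10000 bp, and both were higher again over 50000 bp, at 0.198 and 0.175. Adjacent pairs share their library and local background, and a peak can enter 2 pairs.

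Clustered wild-type peaks were found again in the BRD2-null clones about as often as isolated peaks of equal strength. Clone D overlapped 8709 of the 12957 members (67.2%, 66.4 to 68.0) and clone C8 8985 (69.3%, 68.5 to 70.1), a mean of 68.3% ± 1.51 (SD, n = 2). Over all wild-type peaks used, clone D overlapped 64.5% and clone C8 66.6%. The expected share was taken from isolated peaks in the same bin of enrichment, with the list divided into 50 bins of equal size. It was 67.3% for clone D and 69.3% for clone C8, so the differences were −0.0490 and 0.0547 percentage points. The interval of the observed share put the difference between −0.865 and 0.759 points in clone D and between −0.747 and 0.848 in clone C8. Without matching, 63.1% of isolated peaks were found in clone D and 65.3% of them in C8.

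Both clones overlapped 8277 members (63.9%, 63.0 to 64.7), against 64.1% expected and 61.1% of all wild-type peaks used. Neither clone overlapped 3540 members (27.3%, 26.6 to 28.1), against 27.6% expected and 30.0% of all peaks used. Of the members missed by a clone, 708 were missed by clone D only and 432 by clone C8 only. Of all 38359 wild-type peaks used, clone D overlapped 24738, clone C8 25560 and both 23447. Clone D thus missed more over the whole list too. The choice of isolated peaks matters at the scale of a few points. Set against the isolated peaks over 50000 bp from any other, the members differed by 2.20 points (clone D) and 2.98 points (clone C8). Set against isolated peaks over 5000 and up to 50000 bp away, the differences were −1.06 and −1.17 points. How an overlap is counted moved them as well: with a reciprocal overlap of 50% they became −1.64 points (clone D) and −0.800 (clone C8). With wild-type peaks extended by 500 bp they were 1.79 and 1.84. An extended member can also reach the clone peak of a close neighbour, and isolated peaks have no such neighbour. Part of that surplus can thus arise by construction, and its size was not tested.

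**Figure D1:**
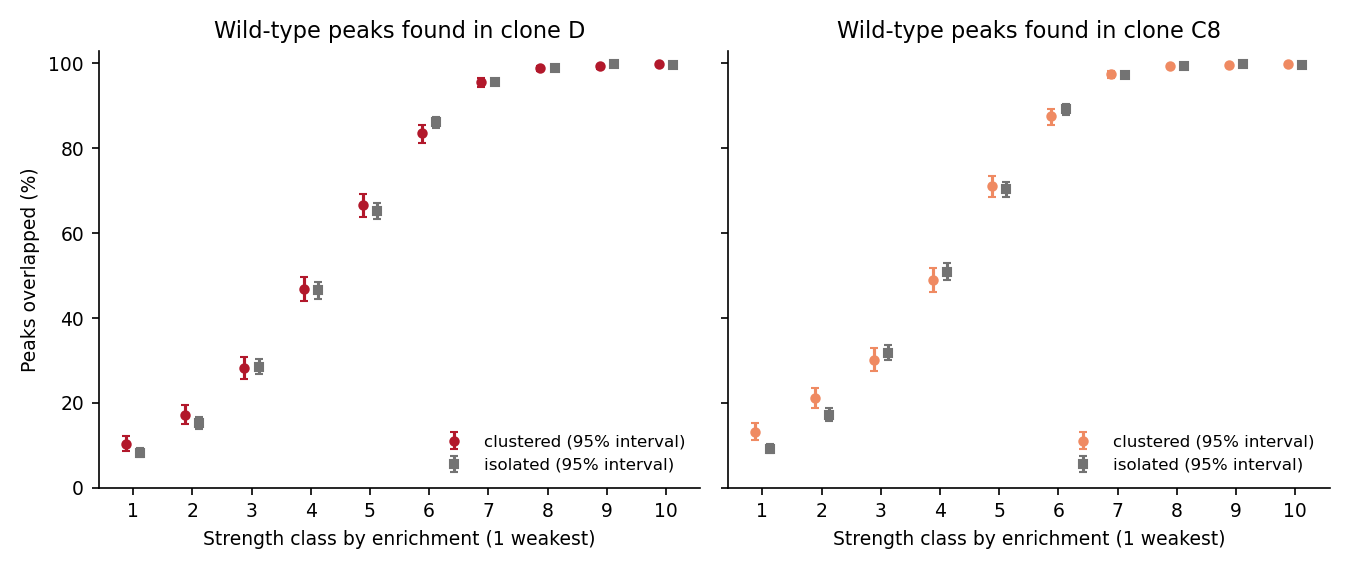
Share of wild-type peaks overlapped in clone D (left) and clone C8 (right), in 10 strength classes of equal size by wild-type enrichment, for clustered peaks (circles) and isolated peaks (squares), with exact 95% intervals. Both kinds rise from low shares in class 1 to nearly all peaks in class 10, and clustered peaks lie above isolated peaks in classes 1 and 2, with intervals that do not overlap in clone C8.

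The agreement held through most of the range of strength. In class 5, with enrichments between 18.97 and 23.79, clone D overlapped 66.6% of clustered peaks and 65.3% of isolated peaks, and clone C8 overlapped 71.1% and 70.4%. In class 1 (up to 11.89) clone D overlapped 10.4% of clustered peaks (8.66 to 12.3) and 8.29% of isolated peaks (7.28 to 9.40). Clone C8 overlapped 13.2% of clustered peaks there (11.3 to 15.3) and 9.26% of isolated peaks (8.19 to 10.4). In class 6 the order was the other way round in both clones, with 83.5% of clustered and 86.2% of isolated peaks in clone D, and 87.5% and 89.2% in clone C8. In class 10 clone D overlapped 1558 of 1560 clustered peaks and clone C8 1559.

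Strong members absent from both clones were rare. The clones both lacked 12 of the 5092 clustered peaks whose −log10 p reached 20 (0.236%, 0.122 to 0.411). They both lacked 20 of the 8482 isolated peaks of that strength (0.236%, 0.144 to 0.364). Counted singly, clone D lacked 47 of these clustered and 56 of these isolated peaks, a higher share among the clustered. Clone C8 lacked 19 and 32, which are similar shares.

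**Figure D2:**
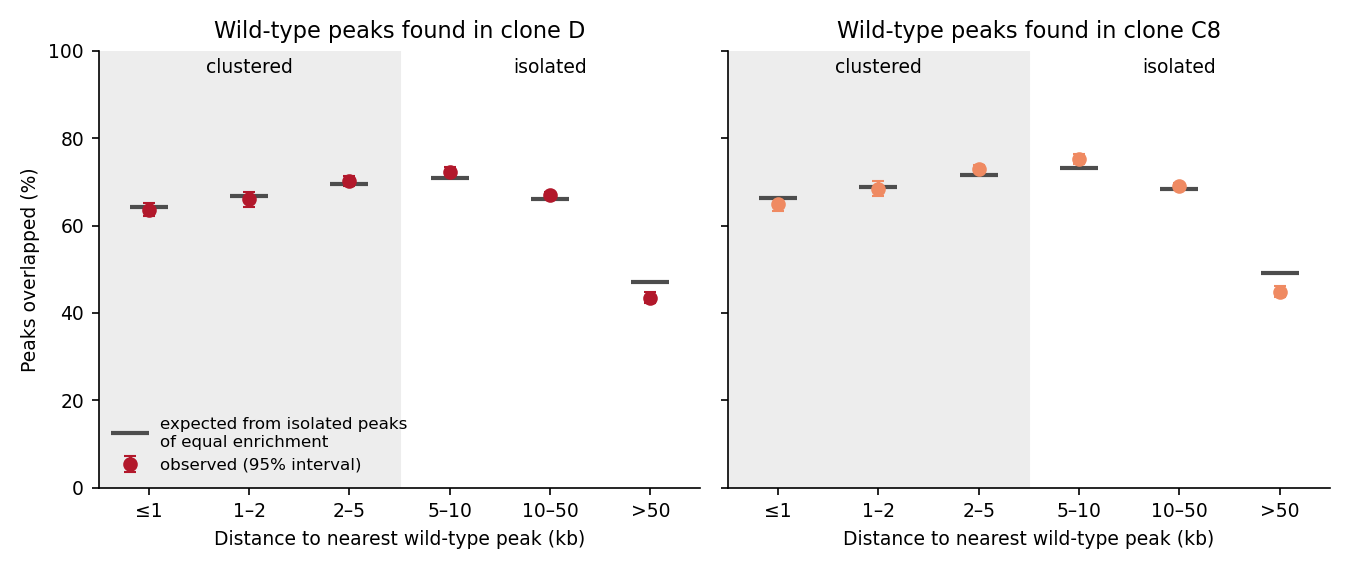
Share of wild-type peaks overlapped in clone D (left) and clone C8 (right) by distance to the nearest other wild-type peak, with exact 95% intervals (points) and the share expected from isolated peaks of equal enrichment (dashes). Members, shaded, lie close to the dashes at every distance, and peaks over 50 kb from any other lie below them.

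Within the members, the raw shares were lowest for the closest neighbours, which were also the weakest class (median enrichment 23.79). Members at most 1000 bp from their neighbour (4028 peaks) had shares of 63.7% for clone D (62.1 to 65.1) and 64.9% for clone C8 (63.4 to 66.3). These differed from expectation by −0.604 and −1.34 points, and both intervals take in the expected share. The 2983 members over 1000 to 2000 bp from their neighbour had shares of 66.0% (clone D) and 68.4% (clone C8). Their differences were −0.688 and −0.365 points, so in clone D the closest class was not the furthest below expectation. The 5946 members over 2000 bp from their neighbour had shares of 70.2% (clone D) and 72.8% (clone C8), 0.647 and 1.21 points above expectation, and in clone C8 the interval (71.7 to 74.0) leaves out the expected 71.6%. Among isolated peaks the highest shares were seen at over 5000 to 10000 bp, with 72.2% (clone D) and 75.3% (clone C8), or 1.29 and 2.18 points above expectation. The lowest were seen over 50000 bp from any other peak, with 43.5% in clone D and 44.9% in clone C8, differences of −3.47 and −4.23 points from expectation. Those peaks were also weak, with a median enrichment of 15.86. The distance classes also differ in where in the genome they lie, and the part of this in the shares was not tested.

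By cluster size the differences stayed small where there were many peaks. In pairs, clone D overlapped 65.4% of 8584 peaks against 65.2% expected, and clone C8 67.1% against 67.2%. In clusters of 3 the shares were 70.4% in clone D (70.8% expected) and 73.1% in clone C8 (72.8% expected). In clusters of 4 or more they were 71.3% in clone D (72.4% expected) and 74.7% in clone C8 (74.4% expected). The few clusters of 6 or more peaks scattered widely. In the 20 clusters of 6, clone D overlapped 63.3% of 120 peaks (73.2% expected) and clone C8 66.7% (75.7% expected). The 4 clusters of 7 had the lowest shares, 57.1% in D and 60.7% in C8, close to their expectation of 59.5% and 61.3%. The 3 clusters of 9 had 70.4% in each clone, with differences of −7.79 and −9.65 points, and the 2 clusters of 10 had 15 of 20 peaks in each, 12.7 and 10.4 points above expectation. The peaks of each size share a handful of places in the genome.

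Neighbours in a cluster were found or missed together more often than their strengths alone would give. In clone D, 2761 clusters had all of their peaks (49.5%), 1788 had some (32.0%) and 1032 had none (18.5%). In clone C8 the counts were 2913 (52.2%), 1705 (30.6%) and 963 (17.3%). If each member had been found independently at the rate of isolated peaks of its strength, clone D would have had 2519.9 complete, 2253 mixed and 808 empty clusters. Clone C8 would have had 2676.6, 2163 and 741. Mixed clusters were thus 0.794 times the expected number in clone D and 0.788 times in clone C8. All peaks were found in both clones in 2478 clusters, against 2294.7 expected.

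**Figure D3:**
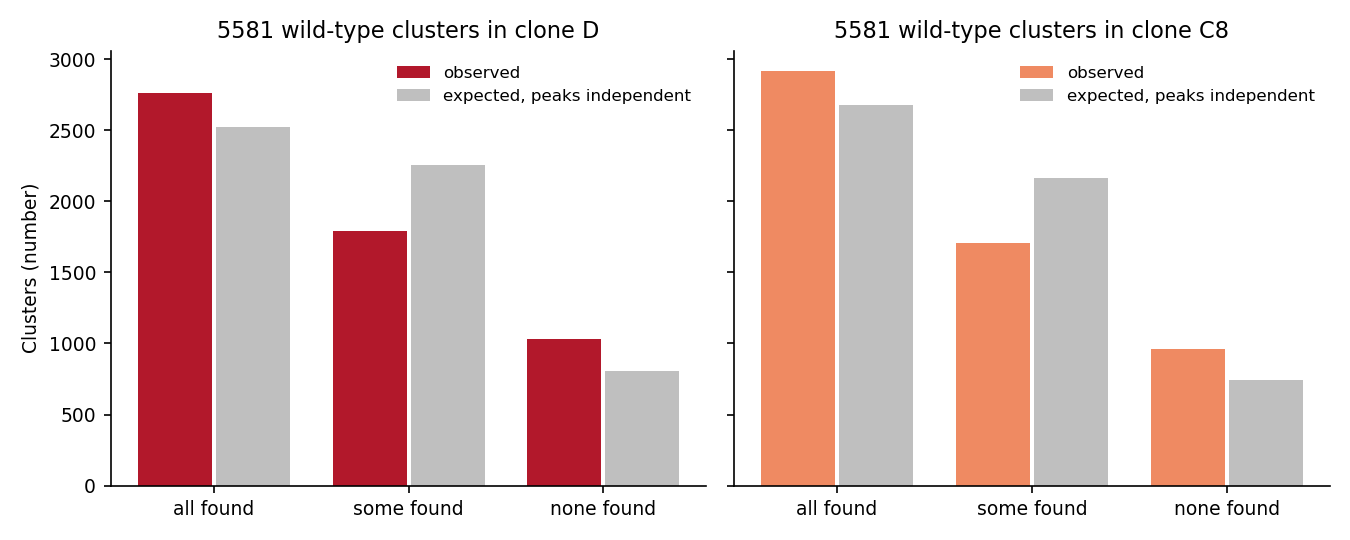
Number of wild-type clusters of which a clone overlapped all, some or none of the peaks, for clone D (left) and clone C8 (right), observed (coloured) and expected if each peak were found independently at the rate of isolated peaks of equal enrichment (grey). Complete and empty clusters exceed the expectation in both clones and mixed clusters fall short of it.

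The closer 2 neighbours lay, the less often they were split. Of 585 pairs at most 250 bp apart, clone D split 117 and clone C8 119, against 206.8 and 200.6 expected. The ratios were 0.566 and 0.593. Of the 3642 pairs over 2000 to 5000 bp apart, clone D split 1165 (0.872 times the expectation) and clone C8 1093 (0.858 times). For neighbours over 5000 to 10000 bp apart the ratios were 0.928 and 0.892, and over 10000 to 50000 bp 0.923 and 0.908. Independence is therefore also not met by neighbours outside clusters, and the shortfall within clusters should be read against those ratios.

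Part of the shortest gaps was bridged by a clone peak that covered both neighbours. At gaps of at most 250 bp, this was so for 117 of 585 pairs in clone D and 65 in clone C8. Such bridged pairs count as found together by construction. Without them, pairs at most 1000 bp apart still had ratios of 0.728 in clone D and 0.728 in clone C8. When a pair was split, the stronger neighbour was the one found in 1861 of 2089 cases in clone D (89.1%) and in 1775 of 2005 in clone C8 (88.5%). Adjacent pairs outside clusters gave similar shares. They were 89.1% and 90.5% at gaps of over 5000 to 10000 bp, 89.9% and 90.1% at over 10000 to 50000 bp, and 91.1% and 91.2% beyond.

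**Figure D4:**
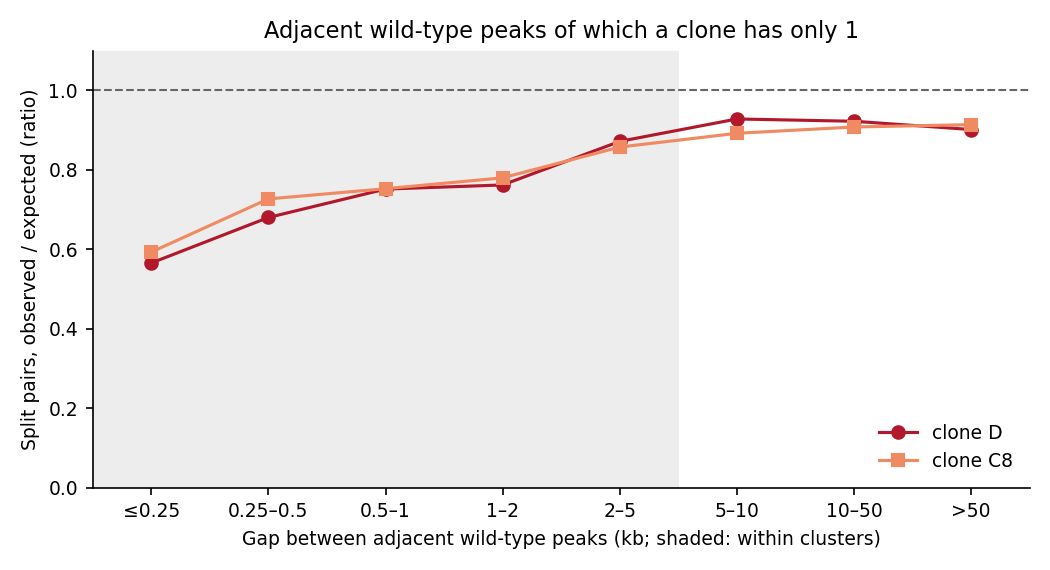
Ratio of observed to expected numbers of split pairs (adjacent wild-type peaks of which a clone overlaps only 1) by the gap between them, for clone D (circles) and clone C8 (squares); the dashed line marks equality and the shaded gaps lie within clusters. The ratio climbs with the gap from below 0.6 at gaps up to 0.25 kb and stays near 0.9 beyond 5 kb.

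The shortfall of mixed clusters depended on how strength was restricted. With only peaks of a −log10 p of at least 10 in every list, and clusters rebuilt from them, mixed clusters were 0.924 times the expected number in clone D and 0.967 times in clone C8. Of the 1165 clusters whose members all had a −log10 p below 10, clone D had none of the peaks in 883 (75.8%) and clone C8 in 849 (72.9%). The expected numbers of such empty clusters were 688.1 and 646. Mixed clusters were there 0.523 (clone D) and 0.546 (clone C8) times the expected number. Where at least 1 member had 10 or more, these ratios were 0.854 and 0.849. Where every member of a cluster had at least 20, clone D had all the peaks in 858 clusters, some in 8 and none in 1, while clone C8 had all in 862 and some in 5. The mixed counts of 8 and 5 stood against 21.0 and 14.5 expected, ratios of 0.381 and 0.346, on few clusters. Clusters picked by the −log10 p of their members were here set against isolated peaks binned by enrichment alone. Isolated peaks that reached 20 were rarely missed: of 8482, clone D lacked 56 and clone C8 32. The expected numbers for clusters picked in this way may therefore be off, and their ratios cannot show where the shortfall was larger. All 86 clusters whose weakest peak stood in strength class 10 were complete in both clones.

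With a clone as the starting list the ratios were below 1 as well, but a rise with the gap was less clear. For clone D peaks sought in clone C8 the ratio was 0.889 at gaps of at most 1000 bp, 0.876 at over 1000 to 5000 bp and 0.890 at over 5000 to 10000 bp, so no rise was seen. For clone C8 peaks sought in clone D the same gaps gave 0.843, 0.913 and 0.948. Sought in wild type, clone D peaks gave 0.759, 0.810 and 0.874, and clone C8 peaks 0.806, 0.836 and 0.853. Without bridged pairs the ratios at most 1000 bp were 0.906 (D in C8), 0.903 (C8 in D), 0.779 (D in wild type) and 0.843 (C8 in wild type).

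Clustering by the same rule in the clone lists took in 8870 of the 28935 clone D peaks used (30.7%) in 3894 clusters, and 9876 of the 31272 clone C8 peaks used (31.6%) in 4282 clusters. The wild-type figures were 33.8% and 5581. Clustered clone D peaks were found in wild type at 88.7% (88.0 to 89.3), 2.48 points above isolated clone D peaks of equal enrichment, and in clone C8 at 90.1% (89.4 to 90.7), 0.933 points above. Clustered clone C8 peaks were found in wild type at 86.1% (85.4 to 86.8), 2.52 points above, and in clone D at 84.9% (84.1 to 85.6), 0.860 points above. A small surplus of clustered over isolated peaks was thus seen when the search started from a clone list, and not when it started from the wild-type list. The difference between these directions was not tested.

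Compared with isolated peaks of their own strength, the strongest members were found less often and the weakest more often. The strongest member was found in clone D in 78.7% of clusters (81.8% expected from its strength) and in clone C8 in 80.2% (83.1% expected). The weakest member was found in clone D in 53.8% (49.8% expected) and in clone C8 in 56.4% (52.4% expected). Members picked this way have weaker or stronger neighbours by construction, and the isolated peaks were not picked so. Since neighbours were found or missed together, such differences can follow from the choice itself, and its part was not tested. The strongest member of a cluster was mostly the same in the clones. Clone D had a peak of its own for every member of 2627 clusters without a tie for the strongest, and its strongest peak there was the strongest of wild type in 1980 (75.4%, 73.7 to 77.0). For clone C8 it was 2091 of 2831 (73.9%, 72.2 to 75.5). If every member of a cluster were equally likely to be the strongest, the shares would be 46.7% for D and 46.4% for C8. Where the strongest wild-type member exceeded the next by more than 2 times, the strongest peak was the same in 93.3% of clusters for clone D and 91.8% for clone C8. Where it exceeded it by at most 1.2 times, they were 56.2% and 52.5%, against 45.5% and 45.3% if every member were equally likely.

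Few clone peaks that touched a cluster lay between its members. A cluster starts and ends in a wild-type peak, so most clone peaks that touch it overlap one by construction. Among the clone D peaks used, 88.7% of clustered and 83.7% of isolated peaks overlapped a wild-type peak. For clone C8 these shares were 86.1% and 79.8%. Clone D had 8675 peaks that touched the span of a wild-type cluster, of which 70 (0.807%) overlapped no wild-type peak and 145 (1.67%) covered 2 wild-type peaks. Clone C8 had 9062, of which 112 (1.24%) overlapped none and 88 (0.971%) covered 2. No clone peak covered 3. The clone peaks over 2 wild-type peaks were wide, with a median of 899 bp (clone D) and 713 bp (clone C8), against 513 and 439 bp for those over 1. The clone peaks that overlapped none were weak: a −log10 p below 10 was held by 53 of clone D's 70 and 94 of clone C8's 112. At least 2 separate clone peaks over members remained in 3206 clusters in clone D (57.4%) and in 3376 in clone C8 (60.5%).

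The 5 clusters of 9 or 10 peaks all had their 4 strongest peaks in both clones. A cluster of 10 peaks on chromosome 19 (5776359 to 5793974) had 7 of them overlapped in each clone, the same 7. Its strongest peaks lay 68 bp apart (5785999 to 5786926 and 5786995 to 5787565), with enrichments of 27.17 and 23.29 in clone D, 43.29 and 39.49 in clone C8, against 55.51 and 54.94 in wild type. The 3 absent peaks had wild-type enrichments of 9.91, 11.89 and 15.86, while the weakest member of all, at 8.99 (5780114 to 5780556), was found in both clones. The other cluster of 10, on chromosome 1 (88416961 to 88436683), had 8 peaks found in each clone, its absent peaks being at 11.68 and 14.53 in wild type. There a pair of members 125 bp apart (88424565 to 88425186 and 88425312 to 88425558) lay under 1 wide peak in each clone.

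A cluster of 9 peaks on chromosome 12 (114451960 to 114462808) was dense and strong: 9 peaks in 10849 bp with a median enrichment of 45.07. Both clones overlapped 8 of the 9, and the absent peak was the weakest at 11.3. The peak at 114456097 to 114456581 was the strongest of the cluster in every list, with 43.51 in clone D, 60.72 in clone C8 and 64.92 in wild type. The cluster of 9 on chromosome 6 (72340897 to 72365648) had a strongest member of 134.81 in wild type, rank 79 of the peaks used. Fewer of its peaks were found: each clone overlapped 5, 4 of them in both clones. On chromosome 10 (79231148 to 79256322) each clone overlapped 6 of 9, of which 5 were common.

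Clusters of 7 peaks went separate ways. On chromosome 15 (103002865 to 103021901) clone D overlapped 6 and clone C8 all 7, and on chromosome 12 (81242291 to 81263775) the counts were the same. On chromosome 5 (123508081 to 123519730) clone D overlapped 4 and clone C8 3. The other on chromosome 5 (47544518 to 47552979) had none of its 7 peaks in either clone, and all 7 were weak, with enrichments of 8.28 to 16.07. The cluster of 6 on chromosome 5 with the shortest span (117559610 to 117566417) had 3 peaks in clone D and 4 in clone C8, 2 of them common.

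**Figure D5:**
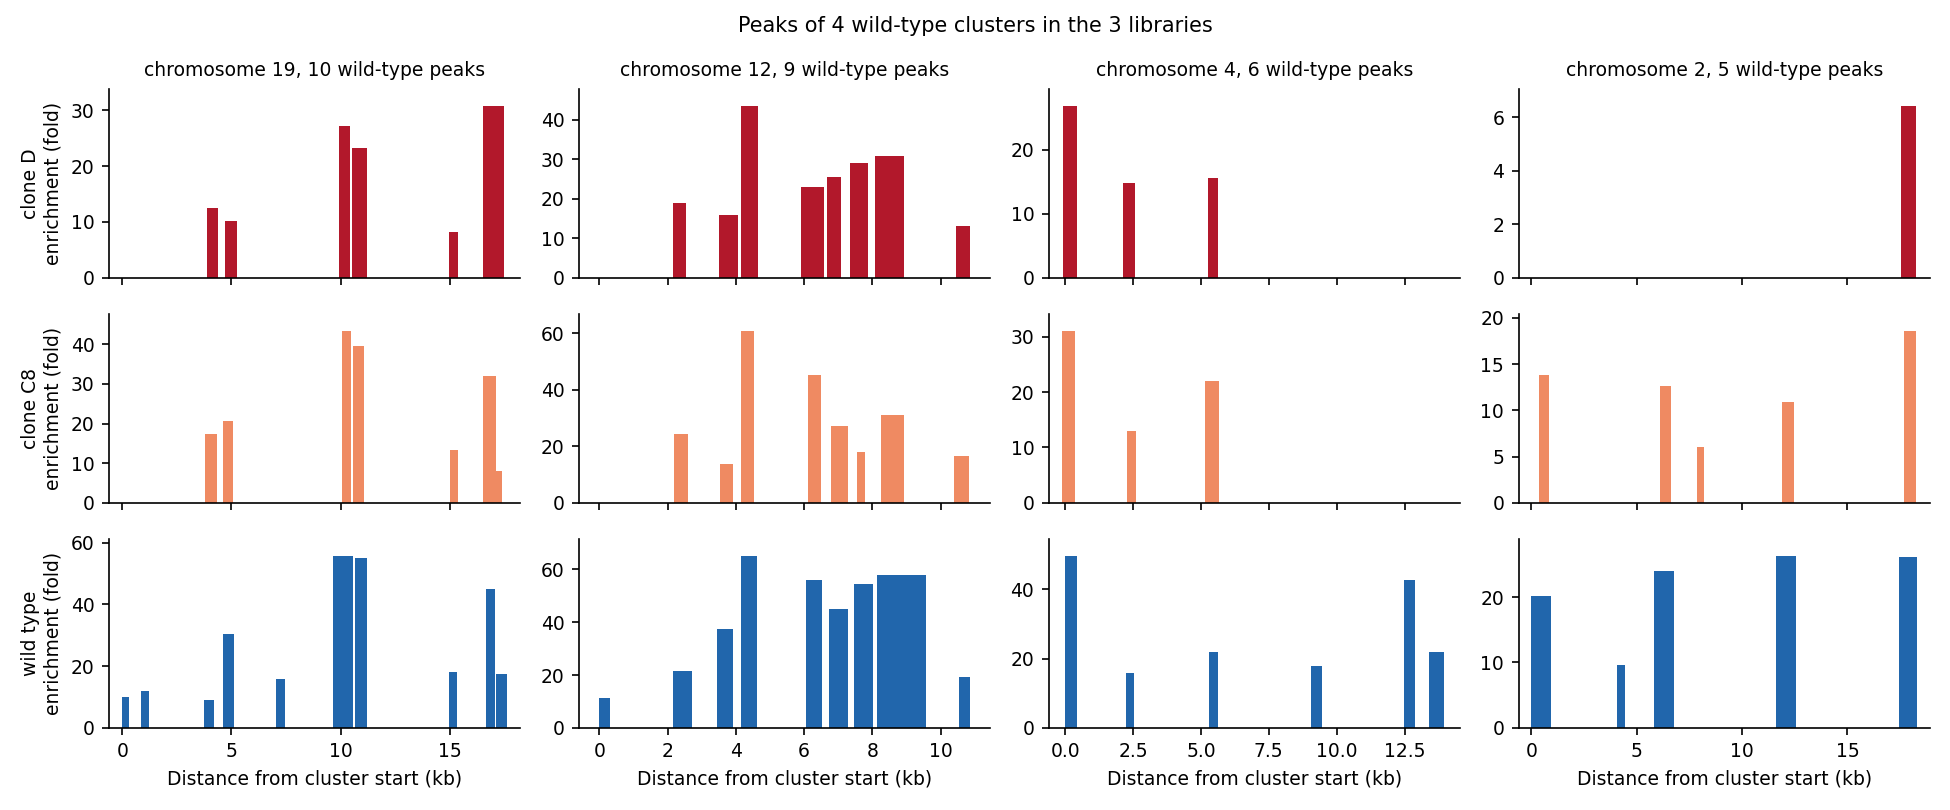
Peaks of clone D (top), clone C8 (middle) and wild type (bottom) in 4 wild-type clusters, placed by distance from the cluster start (kb); bar width is peak width and bar height is the authors' enrichment on a scale of its own in each panel. The clones repeat the strong wild-type peaks on chromosomes 19 and 12, lack the right-hand 3 peaks on chromosome 4, and differ from each other on chromosome 2.

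The clusters whose weakest peak was strongest were pairs of 2 strong sites, all found in both clones. The first, on chromosome 3 (145600703 to 145605506), had peaks 3795 bp apart with enrichments of 41.74 and 73.27 in clone D, 74.93 and 99.48 in clone C8, against 126.88 and 107.15 in wild type. The stronger of the 2 in each clone was thus the weaker in wild type. The second, on chromosome 17 (6759562 to 6765506), had 36.63 and 37.84 in clone D, 54.02 and 62.13 in clone C8, against 108.6 and 101.7 in wild type, again with the order turned in both clones. Of the other 6, a pair of clusters lay on chromosome 1 (95805660 to 95808833 and 95874757 to 95877926). The rest were 1 each on chromosome 7 from 4378797 to 4383567, chromosome 3 (88407362 to 88411758), chromosome 10 from 127622837 to 127625997 and chromosome 5 (122841561 to 122844428). Their peaks lay 1843 to 3594 bp apart. Of these 6, the clusters on chromosomes 1, 3 and 5 also had the order turned in both clones. The clusters on chromosomes 7 and 10 had the wild-type order in both.

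Clusters with no peak in either clone numbered 901 (16.1% of clusters), and 809 of them were pairs. They were weak: the median enrichment of their strongest member was 13.88, and in 811 every member had a −log10 p below 10. In the 2478 clusters complete in both clones, the median of the strongest member was 53.53. The strongest of the absent clusters lay on chromosome 1 (174059276 to 174061809), where peaks of 61.46 and 19.82 were both missed. On chromosome 18 (6667481 to 6668876) the peaks were at 61.46 and 9.91. On chromosome 5 (115340035 to 115345025) a peak of 55.51 stood between peaks of 13.03 and 15.67, and on chromosome 6 (18792967 to 18797240) the peaks were at 13.75 and 55.36. The next 4 had strongest members of 29.74 to 37.67 and were spread over chromosome 6 (113282769 to 113287019), chromosome 5, from 146974181 to 146976579, chromosome 18 (36872135 to 36877249) and, from 20694003 to 20696260, chromosome 10. Each of these 8 clusters had 1 moderate or strong peak beside 1 or 2 weaker ones.

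In 1280 clusters at least 1 peak was found in both clones and at least 1 in neither. Among isolated peaks 59.7% were found in both and 31.4% in neither, and members differed in strength. How many such clusters strength alone would give was not tested. The strongest absent peak beside a found neighbour lay on chromosome 17 (56336139 to 56339595). The peak at 56339231 to 56339595 had an enrichment of 71.28 and was absent from both clones. Its neighbour 2519 bp away was found at 19.11 in clone D, 22.33 in clone C8 and 37.11 in wild type. Here the weaker wild-type peak was the one found. The same held on chromosome 6 (140661241 to 140664057), where a peak of 43.61 was absent and its neighbour had 12.7 in clone D, 32.04 in clone C8 and 33.7 in wild type.

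On chromosome 4 (83173803 to 83187741) a cluster of 6 peaks fell into a found and an absent side. The 3 peaks at lower coordinates were found in both clones, with wild-type enrichments of 49.56, 15.86 and 21.81. The 3 at higher coordinates, at 17.84, 42.86 and 21.81, were found in neither. A peak of 15.86 was thus found while one of 42.86 in the same cluster was not. On chromosome 11 (97806842 to 97809050) 2 peaks of the same wild-type enrichment, 39.65, had opposite outcomes: the one at higher coordinates was found in both clones and the other in neither. The remaining 4 were spread over chromosome 17 (46919839 to 46922371), chromosome 12, from 60320980 to 60328172, chromosome 11 (50248339 to 50260548) and, from 65983735 to 65992437, chromosome 9, with absent peaks of up to 39.43.

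The clones mostly had the same number of peaks in a cluster. They did so in 4567 clusters, while clone D had more in 384 and clone C8 more in 630. Clone C8 also had the longer list, and overlapped 66.6% of all wild-type peaks used against 64.5% for clone D. The largest difference was 3 peaks, in 2 clusters. On chromosome 11 (115932215 to 115937333) clone D had 1 and clone C8 4 of 4 peaks. There 2 members 11 bp apart lay under 1 clone C8 peak (115936888 to 115937339), so clone C8 had 3 peaks of its own. On chromosome 2 (83815954 to 83834259) clone D overlapped 1 of 5 peaks and clone C8 4.

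That chromosome 2 cluster was the most regular of all. Of its 5 peaks, 4 started exactly 5810 bp apart, at 83815954, 83821764, 83827574 and 83833384. Their widths were 950, 950, 950 and 876 bp, and their wild-type enrichments 20.24, 24.03, 26.22 and 26.17. Clone C8 had a peak over each of the 4, with enrichments of 13.82, 12.65, 10.94 and 18.56. Clone D had a peak over the last only, with 6.42. Among the 1289 clusters of 3 or more peaks, 9 held 3 members whose starts were equally spaced to within 10 bp, and this was the only one in which the spacing agreed to the base. The search for regular spacing was added after this cluster had been seen. The placing of reads that match several genomic positions was not stated in the sources used here.

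The other 3 of the 5 clusters with the largest difference between clones lay on chromosome 11 (117641995 to 117656950), with 2 of 6 peaks in clone D and 4 in clone C8, on chromosome 7 (19774809 to 19783729), with 3 and 5 of 5, and on chromosome 14 (55711113 to 55725749), with 2 and 4 of 5. In all 5, clone C8 had more.

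Across chromosomes the members stayed close to isolated peaks of equal enrichment in the whole list. The difference between observed and expected shares ran from −2.42 points on chromosome 15 to 2.25 on chromosome 17 in clone D, and from −2.99 on chromosome 6 to 2.48 on chromosome 2 in clone C8. Members stood furthest below expectation in both clones on chromosome 6 (−1.71 in D, −2.99 in C8), chromosome 9 (−1.78, −2.00), chromosome 13 (−1.50, −2.16), chromosome 14 (−2.01, −0.940) and chromosome 16 (−1.82, −1.15). They stood above it by more than 1 point in both on chromosome 17 (2.25 in D, 1.71 in C8) alone. Chromosome 15 was low in clone D and at 0.254 points in clone C8.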

How the data were processed

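CTCF ChIP-seq peak lists of 2 BRD2-null clones and 1 wild-type library were used. Reads had been handled with bcl2fastq 1.8.4 and Bowtie 1.0.0 on build mm9, per the submitters' processing notes. The peak caller, its settings and any use of inputs were not stated in the sources used here. Column 7 was taken, from the broadPeak layout and with no header to name it, as the authors' fold enrichment (a ratio). Column 8 was likewise taken as the authors' −log10 p (lowest value 5). Column 9 was taken as the authors' q-value (a fraction between 0 and 1), used only to count peaks at or below 0.05. Depth is unknown. Peaks within a list did not overlap.

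Distances were taken between edges, and measuring them before or after the chromosome 14 segment was dropped put 0 peaks in another class. Expected shares are those of isolated peaks in 50 bins of equal size by enrichment; expected counts of clusters multiply them over members. Clusters named are the 10 with most peaks, 8 with the strongest weakest peak, 8 absent from both clones, 8 with found and absent peaks, and 5 with the largest clone difference. The members, lists and rules were chosen with earlier results of these data known. An mm9 genome and annotation were not used here, so gene names and sequences are not given. Alternatives changed the distance limit, overlap, matching, isolated set, list thresholds, merging, chromosomes and clones. Python 3.11.15, pandas 2.3.3, numpy 2.4.6, SciPy 1.17.1 and matplotlib 3.10.9 were used, and overlaps and clusters were checked against bedtools 2.31.1 and on simulated data.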

Additional observations from a re-analysis of the deposited data

How the results depend on the processing

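Of 148 values under 18 alternatives, 87 stayed within the limits set and 61 moved; shares were held to the spread between the clones (1.51 points), differences and ratios to the binomial interval of the share behind them, and counts to a factor of 1.5. The comparison with isolated peaks over 5000 to 50000 bp was chosen after seeing the data. Below, shares and differences from isolated peaks of equal enrichment are percentage values of clone D, clone C8 and both clones in that order, and ratios are mixed clusters, observed over expected, in clone D and clone C8. A limit of 2000 bp gave shares of 64.7, 66.4 and 61.2, differences of −1.16 (clone C8) and −1.13 (both), 1488 clusters complete in both clones and ratios of 0.711 and 0.729. A limit of 10000 bp gave shares of 68.8, 71.2 and 65.4, a difference of 1.27 (clone C8) and ratios of 0.851 and 0.824. A reciprocal overlap of 50% gave shares of 64.5, 67.4 and 60.7, differences of −1.64, −0.800 and −1.75, and a ratio of 0.831 (clone D). Extension by 500 bp gave shares of 69.1, 71.3 and 66.0, differences of 1.79, 1.84 and 1.86, and ratios of 0.705 and 0.694. An extended member can reach the clone peak of a close neighbour, so higher shares and lower ratios can arise there by construction. Counting each clone peak once gave differences of −0.991 (clone D) and −1.07 (both) and a ratio of 0.841 (clone D). Isolated peaks over 50000 bp away gave differences of 2.20, 2.98 and 1.47, and those over 5000 to 50000 bp away −1.06 and −1.17 (clones D and C8). Matching by −log10 p gave ratios of 0.762 and 0.752. The upper 75% of each list gave shares of 71.8, 75.6 and 67.5 and ratios of 0.927 and 0.946. Lists of equal length gave shares of 84.1, 83.5 and 79.4, a difference of 0.809 (clone D) and ratios of 0.878 and 0.922. A −log10 p of at least 10 gave shares of 86.6, 87.5 and 82.3 and ratios of 0.924 and 0.967. These thresholds remove weak peaks by construction. Merging peaks within 1000 bp gave shares of 69.8, 72.3 and 66.6 and a ratio of 0.835 (clone D). With a clone left out, the share in both became 67.2 to 69.3 and the count of complete clusters 2761 to 2913, since 1 list then had to hold the peaks. Bins of enrichment and width, 20 bins, chromosome X and the chromosome 14 segment moved none of these. All 32 ratios under an alternative were below 1. For the other settings that moved a value, the cause was not tested. No paired analysis was possible because replicate numbers are not among the labels and nothing here was tested. Unknown depth limits every count, since weak sites may go uncalled for want of reads.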

Other observations

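On chromosome X, 396 of 1610 wild-type peaks (24.6%) were clustered, in 182 clusters. Clone D overlapped 43.2% of them (38.2 to 48.2) and clone C8 44.4% (39.5 to 49.5), against 40.7% and 43.2% of the isolated peaks of chromosome X. Clustered and isolated peaks there had the same median enrichment of 15.86. In the segment of chromosome 14 from 2 to 8 Mb, 149 of 280 wild-type peaks (53.2%) were clustered, in 57 clusters of up to 7 peaks with a median enrichment of 11.04. Clone D overlapped 2 of the 149 and clone C8 5. Of the 131 isolated peaks in the segment, clone D overlapped 0 and clone C8 13.

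The widest wild-type member, on chromosome 12, covered 4464 bp, against a median of 413 bp over the members.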
